A study of Mus musculus with 38 samples.

Results

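Integrins are the adhesion receptors by which lymphocytes hold to other cells and to matrix, and 9 integrin subunit genes of lymphocytes were followed through the differentiation of mouse B cells into plasma cells. The genes were taken by symbol, in capitals in the tables, as ITGA4, ITGA6, ITGAL, ITGAM, ITGAX, ITGAE, ITGB1, ITGB2 and ITGB7, and are printed here in mouse style. All 9 were found in every RNA table, among 11441, 20650 and 20605 genes in the 3 kinds of table. The rule used no measured value, but earlier results of these data were known when the genes were chosen.

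Each integrin is a pair of an alpha and a beta subunit, and the pairing sets what the receptor binds. The alpha 4 chain (Itga4) pairs with beta 1 (Itgb1) to bind VCAM-1 and fibronectin, or with beta 7 (Itgb7) to bind MAdCAM-1 on the vessels of the gut. The alpha L chain (Itgal) pairs with beta 2 (Itgb2) to form LFA-1, which binds ICAMs and is found on nearly all leukocytes. Beta 2 also pairs with alpha M (Itgam, CD11b) and alpha X (Itgax, CD11c), best known from myeloid and dendritic cells. Alpha E (Itgae, CD103) pairs with beta 7 and binds E-cadherin, and alpha 6 (Itga6) pairs with beta 1 as a laminin receptor. Antibody-secreting cells use alpha 4 integrins and LFA-1 to lodge in marrow and gut.

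All cells came from C57BL/6 mice with a GFP reporter allele in Blimp1 (Prdm1), the repressor that drives B cells towards antibody secretion. That reporter allele is known to make no functional Blimp1, so control cells have a single intact allele. Blimp1-deficient pre-plasmablasts were Blimp1(GFP/fl) Cd23(Cre/+), so that the floxed allele is deleted by a Cre driven from a gene of mature B cells, and were sorted as CD138–GFP+CD22hi. Their controls were Blimp1(GFP/+) Cd23(Cre/+), and both genotypes had 4 days of stimulation with LPS, a bacterial cell wall component. The controls gave activated B cells, negative for GFP and CD138, then pre-plasmablasts, positive for GFP alone, and plasmablasts, positive for both. CD138 is a surface marker of antibody-secreting cells. The high CD22 gate was used for the deficient cells, so genotype and gate cannot be told apart in that comparison. In a second experiment, Blimp1(GFP/+) cells received GSK343, which blocks the histone methyltransferase EZH2, or the solvent DMSO during 4 days of LPS, and pre-plasmablasts were sorted as CD138–GFP+. Plasma cells were Blimp1(GFP/+) and were sorted straight from mice as CD28+CD138+GFP+Lin–. Each of the 7 groups had 2 libraries, and the labels do not state whether these were separate animals or cultures. The p-values therefore reflect the scatter of these samples alone, and that scatter could be technical.

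Levels are RPKM, which corrects read numbers for transcript length and library size, and can be compared between genes. Fold changes are differences of log2(RPKM + 1), which understate the change of genes near 0, with the standard error from limma. A gene was called at a limma adjusted p below 0.05 over all genes tested in its table. The 8 libraries of the first experiment had GC-normalized values whose read depth is unknown, and 9744 to 10077 genes per library reached 1 RPKM. The inhibitor libraries and the plasma cell libraries were made without that step, so no test was run across the 3 kinds of table. Prdm1 itself stood at 171.1 and 198.5 RPKM in Blimp1-deficient pre-plasmablasts, against 326.7 and 428.8 RPKM in control pre-plasmablasts. That value counts transcripts of the GFP allele too and checks the genotype only in part. All 10 listed B cell markers reached a mean of 1 RPKM in all 4 groups of the first experiment. In bulk RNA, fewer cells of a type and less RNA per cell cannot be told apart.

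**Figure D1:**
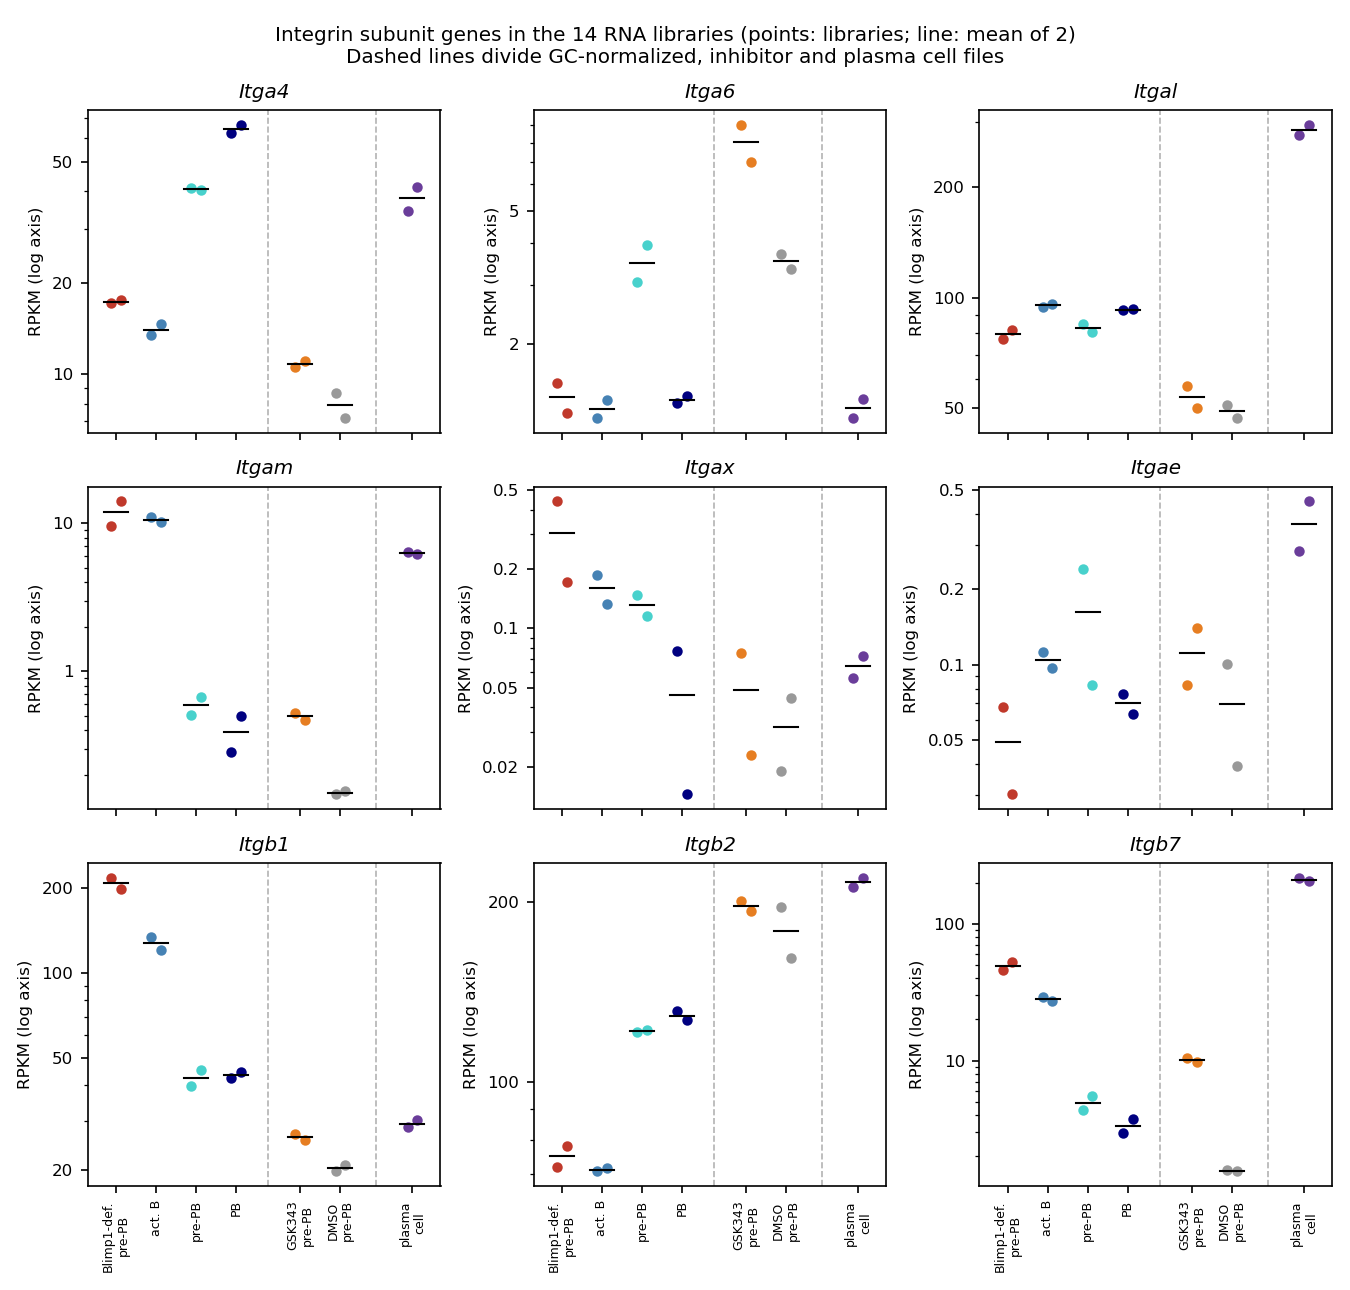
RPKM on log axes of the 9 integrin genes in the 14 RNA libraries, with points for libraries and lines for the mean of 2. Itgb7, Itgb1 and Itgam stood higher in Blimp1-deficient pre-plasmablasts and activated B cells than in pre-plasmablasts and plasmablasts, while Itga4 and Itgb2 stood lower there. Axes differ between panels, and values on either side of a dashed line come from tables made in different ways.

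Levels differed widely between the 9 genes, and 2 of them were hardly expressed. Itgax lay between 0.0144 and 0.440 RPKM in the 14 libraries, and Itgae between 0.0302 and 0.450 RPKM. Neither reached 1 RPKM in any library, so neither was tested anywhere. The other 7 genes were tested in the first experiment, and 6 of them in the inhibitor experiment, where Itgam stayed under 1 RPKM. Itgam passed the filter on low values in the first experiment only through the groups where it was high, so it had to differ, and counts over the genes that passed are given as descriptions of named genes.

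The promoters of the genes with the widest changes, Itgb7, Itgb1, Itgam and Itga4, are shown because these genes moved together or apart across the comparisons below. Each sequence is the 250 bases before the gene's start in RefSeq on GRCm38.p6, 5′ to 3′ on the gene's strand. Promoters were found for 5 of the 9 genes, and the fifth, that of Itgax, is not shown since the gene was hardly expressed. Capitals mark GAGGAA on either strand, a core that ETS factors such as PU.1 and Spi-B can bind. The windows lie at chr15:102231936-102232185 on the minus strand for Itgb7, chr8:128685404-128685653 on the plus strand for Itgb1, chr7:128062390-128062639 on the plus strand for Itgam and chr2:79255176-79255425 on the plus strand for Itga4.
Itgb7: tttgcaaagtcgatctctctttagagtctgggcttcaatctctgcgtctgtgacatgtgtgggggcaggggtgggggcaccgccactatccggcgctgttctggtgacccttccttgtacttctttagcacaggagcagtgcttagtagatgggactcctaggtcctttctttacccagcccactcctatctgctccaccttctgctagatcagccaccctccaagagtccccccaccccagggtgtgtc
Itgb1: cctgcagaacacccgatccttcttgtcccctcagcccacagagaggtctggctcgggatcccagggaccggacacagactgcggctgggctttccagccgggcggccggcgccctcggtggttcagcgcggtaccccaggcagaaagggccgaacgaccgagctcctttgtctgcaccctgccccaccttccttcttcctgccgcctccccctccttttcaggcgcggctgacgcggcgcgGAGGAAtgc
Itgam: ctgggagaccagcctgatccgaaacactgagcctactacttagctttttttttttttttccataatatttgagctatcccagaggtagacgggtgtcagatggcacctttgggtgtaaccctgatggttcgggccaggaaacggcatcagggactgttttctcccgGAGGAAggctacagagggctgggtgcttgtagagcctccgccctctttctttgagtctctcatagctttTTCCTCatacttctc
Itga4: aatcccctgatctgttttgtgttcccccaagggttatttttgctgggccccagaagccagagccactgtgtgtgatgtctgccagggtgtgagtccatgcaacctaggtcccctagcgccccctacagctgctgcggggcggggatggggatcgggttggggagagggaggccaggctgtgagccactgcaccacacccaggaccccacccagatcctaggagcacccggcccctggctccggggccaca

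GAGGAA stood at bases -84 to -79 and -15 to -10 of Itgam and at -9 to -4 of Itgb1, counted from the start, and not in the 250 bases of Itgb7 or Itga4. Of all 32851 promoters in the table, 23.3% hold it in a 250-base window of this kind, on either strand. Past that window it stood at bases 3 to 8 after the start in Itgb7, and once more in Itgam, at bases 33 to 38. In the 300 bases that reach 50 past the start 3 of the 5 promoters hold it, those of Itgam, Itgb1 and Itgb7, and so do 28.3% of all promoters. Of the motifs known for Blimp1, GAAAGTG and AGNGAAAG were searched on both strands, and none of the 5 promoters held either in these 250 bases. GAAAGTG was found in 4.01% and AGNGAAAG in 7.30% of all promoters, and the 2 searches can hit overlapping letters. Itgb1 had the richest window in G and C, at 68.0% with 21 CG pairs, followed by Itga4 at 64.0%, Itgb7 at 56.0% and Itgam at 49.6%. A match is a run of letters and was not tested as a site.

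The step from activated B cells to pre-plasmablasts asks what changes as Blimp1 first comes on. Itga4, Itga6 and Itgb2 rose, while Itgb1, Itgb7 and Itgam fell, and Itgal did not pass the test. Of the 7 integrin genes tested, 6 were thus called, in a table in which 48.2% of all genes were called, 20.2% higher and 28.0% lower.

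Itgb7, the beta chain of the gut-homing receptor, stood at 4.31 and 5.52 RPKM in pre-plasmablasts, against 29.4 and 27.1 RPKM in activated B cells. The groups were far apart, and the gene was 5.75-fold lower on the means, with a log2 fold change of -2.31 ± 0.15 (limma adjusted p = 6.47e-05). Itgb1, the common beta chain of matrix receptors, stood at 39.8 and 45.2 RPKM in pre-plasmablasts and at 134.1 and 119.9 RPKM in activated B cells. It was 2.99-fold lower, a log2 fold change of -1.56 ± 0.11 (limma adjusted p = 7.04e-05). The alpha chain that both of them take moved the other way. Itga4 stood at 41.1 and 40.3 RPKM in pre-plasmablasts, against 13.4 and 14.6 RPKM in activated B cells, and its rise of 2.91-fold gave a log2 fold change of 1.48 ± 0.09 (limma adjusted p = 4.33e-05).

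Within the beta 2 family the chains parted as well. Itgb2 stood at 121.2 and 121.9 RPKM in pre-plasmablasts and at 70.9 and 71.6 RPKM in activated B cells, 0.76 ± 0.08 higher on the log2 scale (limma adjusted p = 0.00041). Its LFA-1 partner Itgal stood at 85.0 and 80.8 RPKM in pre-plasmablasts, against 94.3 and 96.4 RPKM in activated B cells. The groups of Itgal did not overlap, but its log2 fold change of -0.20 ± 0.08 did not pass (limma adjusted p = 0.0764), with a 95% interval of -0.39 to -0.01. With the library number series as a block it did pass (limma adjusted p = 0.0117). The block also raised the calls among all genes in this comparison, to 7289 of 10473 in place of 5048. Itgam, which encodes the alpha M chain CD11b, was at 0.508 and 0.675 RPKM in pre-plasmablasts, against 11.01 and 10.2 RPKM in activated B cells. It was 17.9-fold lower on the means, the widest ratio among the 7 genes, with a log2 fold change of -2.87 ± 0.18 (limma adjusted p = 5.95e-05). Markers of other cells moved in both directions, where 20.2% of all genes rose and 28.0% fell. Of 4 tested myeloid markers 1 rose and 2 fell, and of 5 tested T cell markers 1 rose and 2 fell. Of 4 tested natural killer and dendritic markers 1 rose and 1 fell, and the 2 tested erythroid and megakaryocyte markers fell. Emr1, the macrophage F4/80 antigen, stood at 0.0131 and 0.108 RPKM in pre-plasmablasts, against 1.34 and 1.798 RPKM in activated B cells, and the myeloid adaptor gene Tyrobp at 3.37 and 3.61 RPKM against 11.7 and 17.6 RPKM. The globin gene Hbb-b1 stood at 0.338 and 0.651 RPKM in pre-plasmablasts and at 6.55 and 13.3 RPKM in activated B cells. All 3 passed, but Emr1 and Hbb-b1 passed the filter only through groups where they were high, so they had to differ. The myeloid Cd68 rose, to 30.3 ± 0.042 RPKM in pre-plasmablasts against 14.1 ± 0.24 RPKM in activated B cells. Eomes, of the natural killer and dendritic list, rose to 2.93 ± 1.68 RPKM in pre-plasmablasts against 0.185 ± 0.17 RPKM in activated B cells. It passed the filter only through groups where it was high. The part of these markers' source cells in the Itgam result was not tested. Itga6, a laminin receptor chain, rose at a low level, to 3.06 and 3.95 RPKM in pre-plasmablasts, against 1.21 and 1.36 RPKM in activated B cells (log2 fold change 0.97 ± 0.13, limma adjusted p = 0.00119).

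The next step, plasmablasts over pre-plasmablasts, asks what changes as CD138 appears. Itga4 rose further and Itga6 fell, and the other 5 tested integrin genes did not pass. These 2 calls stand in a table in which 2.34% of all genes were called, 0.716% higher and 1.62% lower. Itga4 reached 62.2 and 66.2 RPKM in plasmablasts, against 41.1 and 40.3 RPKM in pre-plasmablasts, a log2 fold change of 0.64 ± 0.09 (limma adjusted p = 0.0179). Itga6 stood at 1.33 and 1.398 RPKM in plasmablasts, against 3.06 and 3.95 RPKM in pre-plasmablasts, a log2 fold change of -0.92 ± 0.13 (limma adjusted p = 0.0216). Both pairs of groups were separate. Neither call held when any 1 of the 4 plasmablast or pre-plasmablast libraries was left out, which leaves 1 library in a group. Over all libraries left out, log2 fold changes were 0.60 to 0.69 for Itga4 and -1.07 to -0.78 for Itga6. With only these 2 groups fitted, neither was called, but only 1 of all 9993 genes tested was called, in place of 245 of 10473. Itga6 also missed the threshold without either activated B cell library (limma adjusted p = 0.0579 and 0.0581).

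Itgb7 was at 2.93 and 3.75 RPKM in plasmablasts, under both pre-plasmablast libraries, with a log2 fold change of -0.45 ± 0.15 that did not pass (limma adjusted p = 0.214). With the library number series as a block it passed (limma adjusted p = 0.0228), while calls among all genes went to 2128 of 10473 in place of 245. Itgb1 stood at 42.4 and 44.6 RPKM in plasmablasts, within the range of the pre-plasmablast libraries, with a log2 fold change of 0.04 and a 95% interval of -0.22 to 0.29. Itgb2 at 131.1 and 126.8 RPKM and Itgal at 92.6 and 93.1 RPKM did not pass either (limma adjusted p = 0.724 and 0.388). Itgam, at 0.282 and 0.497 RPKM in plasmablasts, had a limma adjusted p of 0.716.

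Over both steps together, plasmablasts differed from activated B cells in 5 of the 7 tested genes, where 55.1% of all genes were called, 21.3% higher and 33.9% lower. Itga4 was 4.58-fold higher in plasmablasts (log2 fold change 2.12 ± 0.09, limma adjusted p = 9.75e-06) and Itgb2 was higher by 0.85 ± 0.08 on the log2 scale (limma adjusted p = 0.000193). Itgb7 was 8.47-fold lower (log2 fold change -2.76 ± 0.15, limma adjusted p = 2.43e-05), Itgb1 2.92-fold lower and Itgam 27.2-fold lower. Itga6 had returned to the level of activated B cells within the spread, with a log2 fold change of 0.05 and a 95% interval of -0.26 to 0.37. Itgal did not pass, with a log2 fold change of -0.04 that turned to 0.16 under median-of-ratios scaling. Ordered by mean level, the 7 genes in activated B cells ran from Itgb1 through Itgal, Itgb2, Itgb7, Itga4 and Itgam to Itga6. In plasmablasts the order was Itgb2, Itgal, Itga4, Itgb1, Itgb7, Itga6 and Itgam, with no overlap between neighbouring genes in the 2 libraries of either group.

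**Figure D2:**
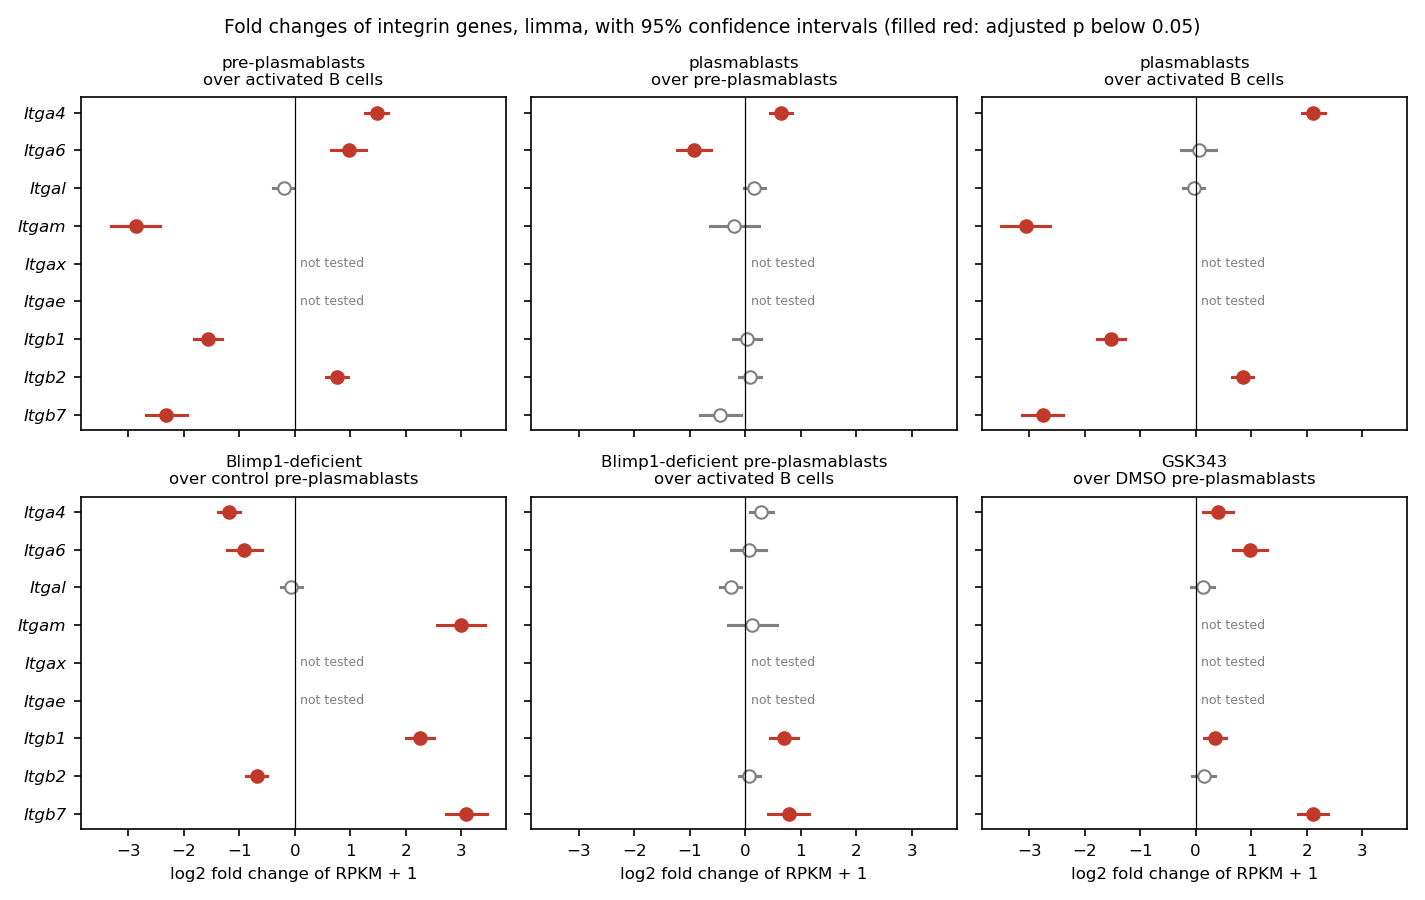
Log2 fold change of RPKM + 1 of each integrin gene in 6 comparisons, with 95% confidence intervals from limma, filled red where the adjusted p was below 0.05. In Blimp1-deficient over control pre-plasmablasts Itgb7, Itgam and Itgb1 lay at 3.09, 3.00 and 2.26, and Itga4, Itga6 and Itgb2 lay below 0.

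The comparison of Blimp1-deficient with control pre-plasmablasts asks which levels depend on an intact Blimp1 allele. Itgb7, Itgam and Itgb1 rose, and Itga4, Itga6 and Itgb2 fell, while Itgal did not pass. The 6 calls among 7 tested genes stand in a table in which 40.4% of all genes were called, 24.4% higher and 16.1% lower. This comparison shares the control pre-plasmablast libraries with the first one, so the 2 sets of fold changes are not independent.

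Itgb7 stood at 45.8 and 52.9 RPKM in Blimp1-deficient pre-plasmablasts, against 4.31 and 5.52 RPKM in controls. The ratio of means was 10.05-fold, and the log2 fold change of 3.09 ± 0.15 (limma adjusted p = 5.34e-05) ranked 50 by size among the 10473 genes tested. Itgb1 stood at 216.3 and 198.3 RPKM in deficient cells and at 39.8 and 45.2 RPKM in controls, 4.88-fold higher (log2 fold change 2.26 ± 0.11, limma adjusted p = 4.91e-05). Itgam reached 9.65 and 14.1 RPKM in deficient cells, against 0.508 and 0.675 RPKM in controls, 20.1-fold higher on the means (log2 fold change 3.00 ± 0.18, limma adjusted p = 8.58e-05). For all 3 genes every deficient library lay far above every control library.

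Itga4 was at 17.2 and 17.5 RPKM in deficient cells, against 41.1 and 40.3 RPKM in controls, 2.35-fold lower (log2 fold change -1.18 ± 0.09, limma adjusted p = 0.000147). Itgb2 was at 72.0 and 78.2 RPKM in deficient cells and at 121.2 and 121.9 RPKM in controls, a log2 fold change of -0.69 ± 0.08 (limma adjusted p = 0.000898). Itga6 stood at 1.53 and 1.25 RPKM in deficient cells, against 3.06 and 3.95 RPKM in controls, a log2 fold change of -0.91 ± 0.13 (limma adjusted p = 0.00216). Itgal was the exception, at 77.1 and 81.8 RPKM in deficient cells and 85.0 and 80.8 RPKM in controls. Its groups overlapped, and the log2 fold change of -0.06 had a 95% interval of -0.25 to 0.13.

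Set against activated B cells instead, Blimp1-deficient pre-plasmablasts differed in 2 of the 7 tested genes, where 18.0% of all genes were called, 10.4% higher and 7.60% lower. Both are beta chains. Itgb1 was 1.63-fold higher in deficient cells, at 216.3 and 198.3 RPKM against 134.1 and 119.9 RPKM in activated B cells (log2 fold change 0.70 ± 0.11, limma adjusted p = 0.00644). Itgb7 was 1.75-fold higher, at 45.8 and 52.9 RPKM against 29.4 and 27.1 RPKM (log2 fold change 0.78 ± 0.15, limma adjusted p = 0.016). The Itgb7 call was lost without the first or the second activated B cell library or without the second deficient library (limma adjusted p = 0.0717, 0.0932 and 0.0977). Itga4 and Itgal passed with the library number series as a block (limma adjusted p = 0.00632 and 0.00642) and not without it (0.0641 and 0.0683), with log2 fold changes of 0.29 ± 0.09 and -0.26 ± 0.08, which makes 4 calls with the block. The block also raised the calls among all genes in this comparison, to 4477 of 10473 in place of 1885. The intervals of Itgam, Itga6 and Itgb2 were -0.31 to 0.57, -0.25 to 0.38 and -0.12 to 0.27 on the log2 scale.

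Markers of other cell types moved with the Blimp1 comparison, where 24.4% of all genes rose and 16.1% fell. Of 4 tested myeloid markers 3 rose and none fell, and of 5 tested T cell markers 3 rose and 1 fell. Of 2 tested erythroid and megakaryocyte markers 1 rose and none fell. The summed RPKM of the 4 of 15 myeloid markers read in these tables was 63.3 to 65.4 in deficient and 34.2 to 34.5 in control pre-plasmablasts, and 27.6 to 33.3 in activated B cells. Cd68 makes up most of that sum. Emr1 stood at 3.54 and 4.68 RPKM in deficient cells, against 0.0131 and 0.108 RPKM in control pre-plasmablasts and 1.34 and 1.798 RPKM in activated B cells. Tyrobp stood at 17.0 and 18.5 RPKM in deficient cells, against 3.37 and 3.61 RPKM in control pre-plasmablasts and 11.7 and 17.6 RPKM in activated B cells. The 6 of 12 T cell markers read there summed to 264.7 to 309.3 RPKM in deficient and 68.3 to 76.1 RPKM in control cells, of which Cd2, also found on mouse B cells, made 249.3 and 295.0 RPKM in deficient and 60.5 and 64.1 RPKM in control cells. The 10 B cell markers summed to 4331 to 4539 RPKM in deficient and 2394 to 2552 RPKM in control cells, and include Cd22, which set the gate. The 6 of 14 natural killer and dendritic markers read there summed to 33.3 to 40.4 RPKM in deficient and 27.8 to 29.2 RPKM in control cells. Flt3 makes up most of that sum. Of 4 tested, 1 rose and 1 fell, where 24.4% of all genes rose and 16.1% fell. Eomes fell, to 0.229 ± 0.20 RPKM in deficient cells against 2.93 ± 1.68 RPKM in controls, and passed the filter only through groups where it was high. Erythroid and megakaryocyte markers, 4 of 13 read, summed to 13.6 to 15.3 RPKM in deficient and 3.77 to 4.66 RPKM in control cells. The part of these markers' source cells in the Itgam, Itgb1 and Itgb7 results was not tested.

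EZH2 places the repressive mark H3K27me3, and the inhibitor comparison asks which genes rise or fall when it is blocked during the culture. Under GSK343, Itgb7, Itga6, Itga4 and Itgb1 rose, no tested integrin fell, and Itgal and Itgb2 did not pass. These are 4 of 6 tested genes, where 18.6% of all genes were called, 12.7% higher and 5.86% lower. Itgb7 stood at 10.4 and 9.69 RPKM with GSK343, against 1.57 and 1.55 RPKM with DMSO. The replicates lay close and the groups far apart, with a ratio of means of 6.45-fold and a log2 fold change of 2.11 ± 0.12 (limma adjusted p = 2.19e-06) that ranked 18 by size among 9479 genes tested. Itga6 stood at 9.03 and 7.01 RPKM with GSK343 and at 3.72 and 3.36 RPKM with DMSO, 2.26-fold higher (log2 fold change 0.98 ± 0.14, limma adjusted p = 0.000722).

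The changes of Itga4 and Itgb1 were smaller. Itga4 stood at 10.6 and 11.1 RPKM with GSK343 and 8.68 and 7.18 RPKM with DMSO (log2 fold change 0.41 ± 0.12, limma adjusted p = 0.039), and Itgb1 at 26.9 and 25.6 RPKM with GSK343 and 19.9 and 20.8 RPKM with DMSO (0.35 ± 0.09, limma adjusted p = 0.0226). The Itga4 call was lost without the second DMSO library or either GSK343 library (limma adjusted p = 0.204, 0.122 and 0.186) and under median-of-ratios scaling (0.0619). The Itgb1 call was lost without either GSK343 library (limma adjusted p = 0.153 and 0.0927). Itgb2 was at 200.2 and 192.6 RPKM with GSK343, against 195.8 and 161.1 RPKM with DMSO, and Itgal at 57.3 and 50.2 RPKM against 51.0 and 47.1 RPKM. Their groups overlapped, with 95% intervals of -0.07 to 0.36 and -0.08 to 0.33 on the log2 scale. Without the first DMSO library Itgb2 passed (limma adjusted p = 0.0301). Itgam stood at 0.518 and 0.470 RPKM with GSK343 and at 0.147 and 0.154 RPKM with DMSO, under the filter, and was not tested.

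With no filter on low values, limma over 20650 genes called none of all genes in the inhibitor experiment and so none of the integrins (5 of the 9 had an unadjusted p under 0.05), with an adjusted p of 0.0798 for Itgb7 and 0.145 for Itga6. Depth was close between the arms, at 1.008 and 0.832 of the first DMSO library for the GSK343 libraries and 0.848 for the second DMSO library. Genes at 0 numbered 6724 and 5430 with GSK343, against 6956 and 6989 with DMSO, so the second GSK343 library stood apart. Genes at 1 RPKM or more numbered 9519 and 9427 with GSK343 and 9188 and 9204 with DMSO. Markers of other cell types moved in both directions with GSK343, and their sums follow the most abundant genes. The counts of markers below come from the filtered fit, in which 12.7% of all genes rose and 5.86% fell. Of 5 tested T cell markers 3 rose and 1 fell. Lck stood at 8.91 ± 0.79 RPKM with GSK343 and 2.33 ± 0.19 RPKM with DMSO, Cd5 at 3.07 ± 0.64 and Lat at 3.54 ± 0.18 RPKM with GSK343, against 0.611 ± 0.49 and 1.85 ± 0.35 RPKM with DMSO. Cd2 fell to 32.9 ± 3.77 RPKM with GSK343, against 49.7 ± 1.78 RPKM with DMSO, and the summed list was at 46.4 to 54.4 RPKM with GSK343 and 55.8 to 56.9 RPKM with DMSO. Of 3 tested myeloid markers Cd14 rose, to 1.84 ± 0.34 RPKM with GSK343 against 0.365 ± 0.082 RPKM with DMSO, and Cd68 fell, with sums of 14.3 to 14.5 RPKM with GSK343 and 17.2 to 17.3 RPKM with DMSO. Of 3 tested natural killer and dendritic markers 1 rose and 1 fell. The one that rose was Prf1, at 3.17 ± 0.80 RPKM with GSK343 and 0.841 ± 0.13 RPKM with DMSO, and the sums were 18.2 to 19.7 RPKM with GSK343 and 19.8 to 21.0 RPKM with DMSO. Of 2 tested erythroid and megakaryocyte markers Car2 rose, to 17.4 ± 0.079 RPKM with GSK343 against 8.49 ± 0.82 RPKM with DMSO, with sums of 21.9 to 32.9 RPKM with GSK343 and 11.6 to 15.0 RPKM with DMSO. Cd5, Cd14 and Prf1 were under 1 RPKM with DMSO and passed the filter only through the GSK343 libraries, so they had to differ. The part of the markers' source cells in the integrin results was not tested.

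In plasma cells taken from mice, Itgb7 was among the most abundant transcripts of the 9 genes. It stood at 218.1 and 205.9 RPKM, at percentiles 98.7 and 98.6 of all genes in the 2 libraries. Itgal at 277.6 and 295.4 RPKM and Itgb2 at 211.7 and 219.0 RPKM were as high or higher, at percentiles of 98.7 to 99.2. Itga4 followed at 34.4 and 41.4 RPKM and Itgb1 at 28.5 and 30.0 RPKM. Itgam was at 6.39 and 6.21 RPKM and Itga6 at 1.21 and 1.37 RPKM, so 7 of the 9 genes reached 1 RPKM in both libraries. In the order of levels, Itgal stood above Itgb2 in both libraries, while Itgb7 stood above Itgb2 in the first library and below it in the second. Levels in plasma cells come from another kind of table and were set beside the others without a test.

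The plasma cell values rest on a repair of the gene names. Among these names stand 5 summary lines of a read counter without values, and names below each of them are displaced against the values. With the names moved back by 2 places, values of 5387 genes between these lines correlated with plasmablasts at a Spearman rho of 0.884 and 0.885 in the 2 libraries, against 0.125 to 0.206 for displacements of 0, 1, 3, 4 or 5. With the names as deposited, Itgb7 would be listed at 0 in both libraries and Itgax at a mean of 12.5 RPKM. Myeloid markers summed to 95.1 and 146.9 RPKM in these libraries, with 8 of 14 at 1 RPKM or more on average, among them S100a9 at 14.9 and 46.1 RPKM and Lyz2 at 6.24 and 9.96 RPKM, while Lyz1 was at 0. Cd4 stood at 8.87 and 12.8 RPKM and Cd3e at 0.123 and 0.197 RPKM. Natural killer and dendritic markers summed to 39.9 and 53.8 RPKM, among them Prf1 at 28.3 and 43.3 RPKM and Gzma at 7.01 and 8.04 RPKM. Of these 14 markers, 3 reached 1 RPKM on average and 8 lay under 0.1 RPKM, with Ncr1, Klrd1 and Batf3 at 0. Erythroid and megakaryocyte markers summed to 32.3 and 57.4 RPKM, with Hbb-b1 at 27.2 and 48.8 RPKM, and 3 of 10 reached 1 RPKM on average. The sort had used a Lin– gate whose antibodies the labels do not name. The part of such cells in the Itgam and Itgb7 levels was not tested.

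**Figure D3:**
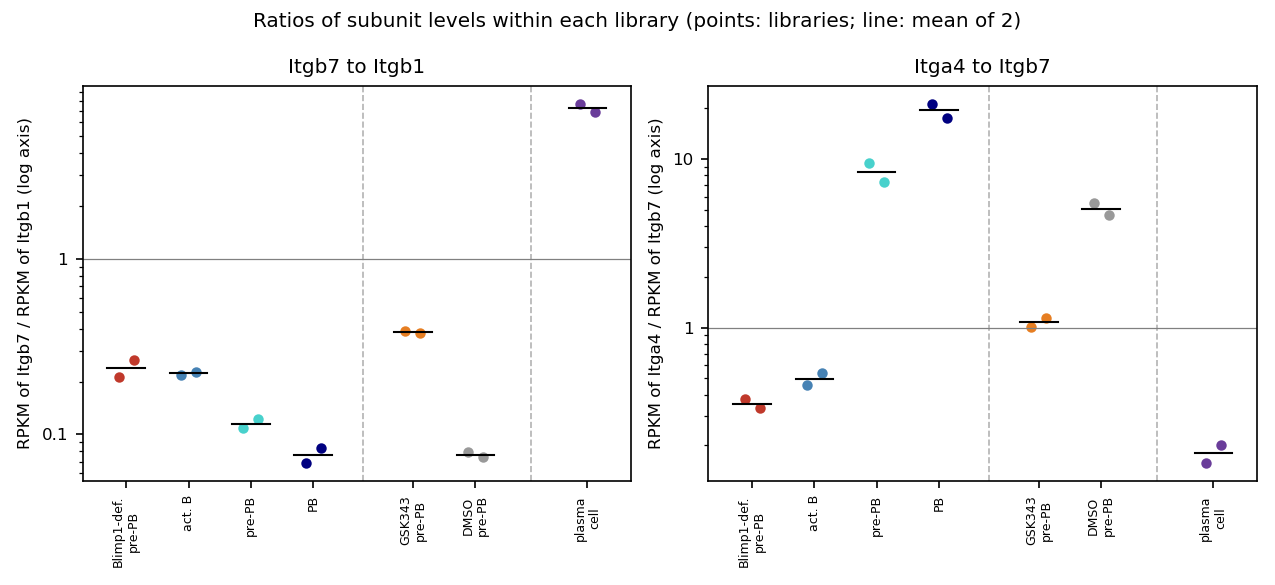
Ratio of RPKM values within each library, on log axes, for Itgb7 to Itgb1 (left) and Itga4 to Itgb7 (right), with points for libraries and lines for the mean of 2. Plasma cells had an Itgb7 to Itgb1 ratio of 7.65 and 6.85, and every other library lay below 0.4. Values on either side of a dashed line come from tables made in different ways.

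Ratios within a library show how the partner chains stood to each other, free of library scaling but not of how each kind of table was made. Itgb7 transcripts amounted to 0.212 and 0.267 of those of Itgb1 in Blimp1-deficient pre-plasmablasts and to 0.108 and 0.122 in control pre-plasmablasts. In the order of stages the ratio was 0.219 and 0.226 in activated B cells, 0.108 and 0.122 in pre-plasmablasts and 0.0690 and 0.0840 in plasmablasts, with no overlap between the 3 stages. It was 0.388 and 0.379 with GSK343, against 0.0790 and 0.0745 with DMSO. In plasma cells, from another kind of table, the ratio was 7.65 and 6.85. These were the only libraries in which Itgb7 exceeded Itgb1.

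Itga4 amounted to 0.375 and 0.331 of Itgb7 in Blimp1-deficient pre-plasmablasts, against 9.55 and 7.30 in control pre-plasmablasts. Along the stages it was 0.457 and 0.538 in activated B cells, 9.55 and 7.30 in pre-plasmablasts, and 21.3 and 17.7 in plasmablasts. So the alpha 4 transcript stood below its beta 7 partner in activated and deficient cells and above it in the other cultured groups. With GSK343 the pair stood near equality at 1.01 and 1.14, against 5.52 and 4.64 with DMSO. In plasma cells Itga4 was at 0.158 and 0.201 of Itgb7. For LFA-1, Itgal stood at 1.07 and 1.05 of Itgb2 in deficient cells and at 0.701 and 0.663 in control pre-plasmablasts. It was at 1.33 and 1.35 of Itgb2 in activated B cells, 0.706 and 0.734 in plasmablasts, and 1.31 and 1.35 in plasma cells. In the inhibitor experiment Itgal was at 0.261 and 0.292 of Itgb2 with DMSO and at 0.286 and 0.261 with GSK343. Ratios in pre-plasmablasts thus differed between kinds of table, and the cause was not tested.

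For the 4 integrins whose group means spanned at least 1 on the log2 scale, the 3 genes of most like pattern were found by the root mean square difference of centred log2 values over the 8 GC-normalized libraries. Nearest to Itga4 were Atp6v0a2, a subunit of the vacuolar proton pump, at 0.056, Pdk2, a kinase of pyruvate dehydrogenase, at 0.067, and the homeobox gene Six5 at 0.098. Nearest to Itgb1 were Cd2 at 0.116, the lipid kinase Pik3c2b at 0.117 and Rundc3a at 0.125. Nearest to Itgb7 were Emid1 at 0.162, the retinol dehydrogenase Rdh12 at 0.174 and Ahnak, a large scaffold protein, at 0.203. Nearest to Itgam were Siglecg, an inhibitory receptor of B cells, at 0.192, Gapt at 0.194 and Fam55b at 0.195. Siglecg stood at 84.7 RPKM in deficient cells, against 12.9 RPKM in control pre-plasmablasts, 88.2 in activated B cells and 10.1 in plasmablasts.

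Around the receptors, the other integrin subunits gave 4 tested genes of 17 listed. In pre-plasmablasts over activated B cells all 4 rose, where 20.2% of all genes did, with a median log2 fold change of 1.08 against -0.12 over all genes. Itgb5 and Itga3 passed the filter only through the groups where they were high, so they had to differ. Itgb5, a partner of alpha V, was the leading one, at 7.26 ± 0.72 RPKM in pre-plasmablasts and 0.296 ± 0.22 RPKM in activated B cells (SD, n = 2 each). Itgb3, another partner of alpha V, stood at 6.64 ± 1.52 RPKM in pre-plasmablasts and 2.15 ± 0.31 RPKM in activated B cells, and it fell to 2.22 ± 0.38 RPKM in plasmablasts, against the pre-plasmablast level (limma adjusted p = 0.0437). Itga3, a laminin receptor chain, stood at 1.57 ± 0.21 RPKM in plasmablasts and 0.079 ± 0.0093 RPKM in activated B cells. In Blimp1-deficient over control pre-plasmablasts 3 of the 4 fell and none rose, where 16.1% of all genes fell and 24.4% rose, with a median of -0.57 against 0.12 over all genes, and Itgb5 was at 1.33 ± 0.26 RPKM in deficient cells. With GSK343 1 of 3 tested rose, where 12.7% of all genes did, which was Itgav at a log2 fold change of 0.57 ± 0.14.

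Among 15 listed ligands, 8 were tested in the first experiment, and 6 rose and none fell in pre-plasmablasts over activated B cells, where 20.2% of all genes rose and 28.0% fell. Madcam1, which encodes the ligand of alpha 4 beta 7, stood at 9.10 ± 0.22 RPKM in pre-plasmablasts, against 0.981 ± 0.12 RPKM in activated B cells, and fell to 2.65 ± 0.14 RPKM in plasmablasts, against the pre-plasmablast level (log2 fold change -1.47 ± 0.11, limma adjusted p = 0.0037). Icam2, a ligand of LFA-1, stood at 68.1 ± 19.8 RPKM in pre-plasmablasts and 25.9 ± 7.46 RPKM in activated B cells. In deficient over control pre-plasmablasts 2 ligands rose and 5 fell, where 24.4% of all genes rose and 16.1% fell, with Madcam1 at 3.04 ± 0.30 RPKM and Icam2 at 23.0 ± 8.05 RPKM in deficient cells. With GSK343 2 of 6 tested ligands rose and 1 fell, where 12.7% of all genes rose and 5.86% fell, and Spp1, which encodes osteopontin, stood at 34.9 ± 1.57 RPKM with GSK343 and 10.3 ± 0.34 RPKM with DMSO.

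**Figure D4:**
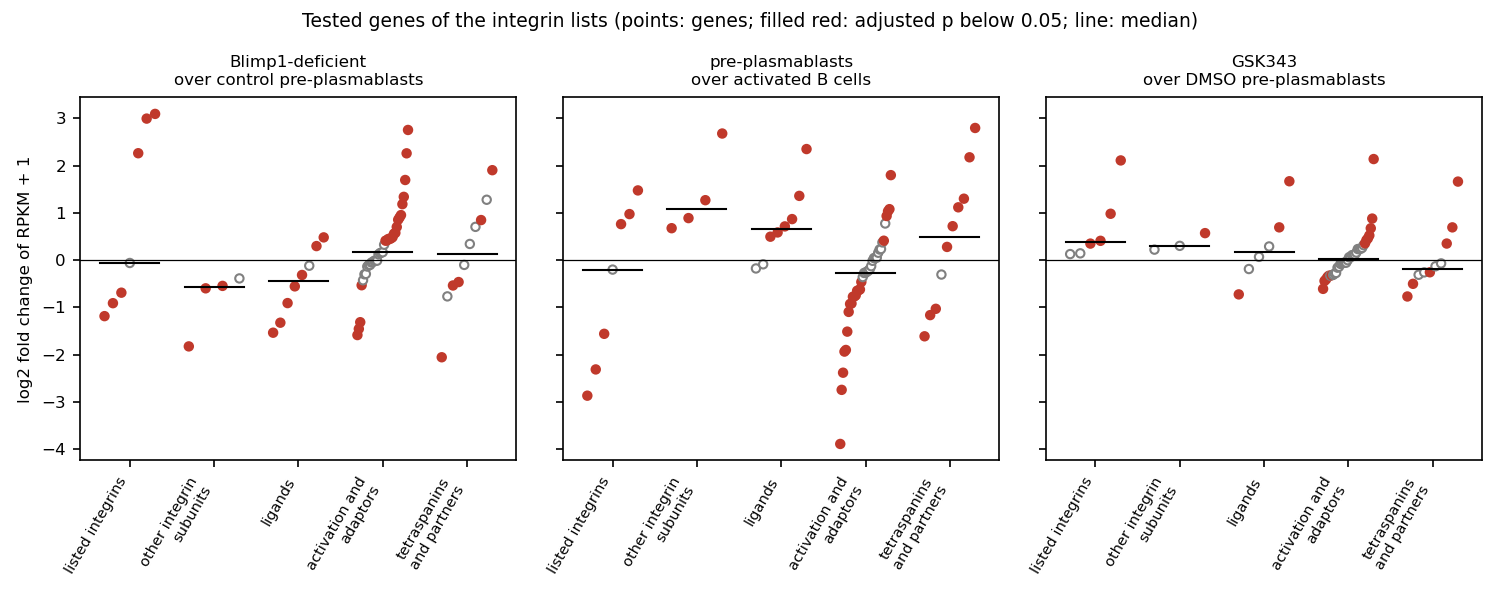
Log2 fold change of RPKM + 1 of each tested gene of the integrin gene lists in 3 comparisons, filled red where the limma adjusted p was below 0.05, with lines at the list medians. The 4 other integrin subunits lay above 0 in pre-plasmablasts over activated B cells with a median of 1.08, and below 0 in deficient over control pre-plasmablasts with a median of -0.57.

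Genes that switch integrins on or tie them to actin, 37 tested of 43, gave 5 higher and 16 lower in pre-plasmablasts over activated B cells, where 20.2% of all genes were higher and 28.0% lower, with a median log2 fold change of -0.27 against -0.12 over all genes. The leading ones fell steeply. Evl, an actin regulator of the Ena/VASP family, stood at 5.25 ± 1.00 RPKM in pre-plasmablasts and 91.3 ± 10.4 RPKM in activated B cells. Rasgrp2, the exchange factor that loads Rap1 to activate integrins, stood at 5.05 ± 0.69 RPKM in pre-plasmablasts and 39.5 ± 2.39 RPKM in activated B cells. Filamin A (Flna), which binds beta chain tails, stood at 23.6 ± 0.64 RPKM in pre-plasmablasts and 127.4 ± 6.40 RPKM in activated B cells, and the focal adhesion kinase Ptk2 at 1.05 ± 0.054 RPKM in pre-plasmablasts and 6.85 ± 0.26 RPKM in activated B cells.

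In Blimp1-deficient over control pre-plasmablasts 17 of these 37 genes rose and 4 fell, where 24.4% of all genes rose and 16.1% fell, with a median of 0.17 against 0.12 over all genes, so the middle of the list lay near that of the table. Evl was at 41.0 ± 2.85 RPKM, Rasgrp2 at 28.0 ± 2.63 RPKM and Flna at 78.8 ± 4.76 RPKM in deficient cells, and all 3 passed against controls. Parvb, a parvin of the focal adhesion, fell to 0.278 ± 0.083 RPKM in deficient cells, against 2.83 ± 0.12 RPKM in controls. It passed the filter only through groups other than the deficient cells. With GSK343 7 of 36 tested genes rose and 6 fell, where 12.7% of all genes rose and 5.86% fell. Alpha-actinin 1 (Actn1) stood at 4.94 ± 0.70 RPKM with GSK343 and 0.344 ± 0.024 RPKM with DMSO (log2 fold change 2.14 ± 0.14, limma adjusted p = 4.51e-06). Actn1 passed the filter only through the GSK343 libraries, so it had to differ.

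Of 10 tetraspanins and other membrane partners of integrins, 6 rose and 3 fell in pre-plasmablasts over activated B cells, where 20.2% of all genes rose and 28.0% fell, with a median of 0.499 against -0.12 over all genes. Slc3a2 (CD98 heavy chain), which binds beta chains and carries amino acid transporters, stood at 320.1 ± 10.9 RPKM in pre-plasmablasts and 70.0 ± 1.23 RPKM in activated B cells. It fell to 76.3 ± 1.42 RPKM in Blimp1-deficient pre-plasmablasts (log2 fold change -2.06 ± 0.08, limma adjusted p = 4.03e-05). The leukocyte tetraspanin Cd37 stood at 312.4 ± 30.9 RPKM in pre-plasmablasts and 954.9 ± 44.7 RPKM in activated B cells, and at 1170 ± 61.1 RPKM in deficient cells. Cd9, a tetraspanin found on plasma cells, was uneven between replicates, at 58.3 ± 35.7 RPKM in pre-plasmablasts and 7.09 ± 3.42 RPKM in activated B cells. In deficient over control pre-plasmablasts 2 of the 10 rose and 3 fell, where 24.4% of all genes rose and 16.1% fell. With GSK343 3 rose and 3 fell, where 12.7% of all genes rose and 5.86% fell, with Cd63 at 2.76 ± 0.14 RPKM with GSK343 and 0.191 ± 0.15 RPKM with DMSO. Cd63 passed the filter only through the GSK343 libraries, so it had to differ.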

How the data were processed

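The 14 RNA libraries of 7 groups were used, and 24 other samples were left out. Polyadenylated RNA was made, per the labels' protocols, into strand-specific libraries and read in 50-nucleotide reads. The submitters' processing notes name the build mm9 and the tools SICER, DESeq 1.8.3, HTSeq 0.5.3 and TopHat 1.4.1, with no role stated. Neither the annotation nor the use of strand in counting was given in the sources used here. The authors deposited RPKM values for each library, GC-normalized for 8 of them, per the file names. Genes listed under a repeated name were left out.

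Values were analysed as log2(RPKM + 1). Testing covered the genes with 2 or more libraries at 1 RPKM or above, 10473 in the GC-normalized tables, where 4 groups shared 1 fit, and 9479 in the inhibitor tables. limma 3.58.1 under R 4.3.3 gave the fits (lmFit, eBayes with a trend, two-sided, Benjamini-Hochberg over all genes tested). RPKM keeps no read counts, and no common step of whole reads was found in the GC-normalized values (at most 4.70% of the genes compared shared a ratio), so the depth behind them is unknown.

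Library numbers in the titles fall into 2 series, and libraries of a series deviated together (correlation 0.666 to 0.781 over 6 pairs of groups), so a fit with the series as a block was run as well. The members and lists were chosen with earlier results of these data known. All 9 integrins are named, and from other lists the called genes with a log2 fold change of at least 1, at most 4 per list and comparison. Itgav is named outside that rule, after its value was seen, as are marker genes of other cell types.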

Additional observations from a re-analysis of the deposited data

How the results depend on the processing

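For the 7 tested integrins (6 with GSK343), 586 of the values recomputed under alternatives kept their direction and side of the threshold, 25 lost their call, 5 gained one and 4 changed sign. The alternatives were a pseudocount of 0.1 or 5, no filter or a filter of 5 RPKM, median-of-ratios scaling, no variance trend, the replicate block, a fit of only the 2 groups, and leaving out each library. Under the filters, no trend, the block and the fit of only 2 groups the fold change cannot move, so only the call could change. The same holds for leaving out a library of a group not compared. In deficient over control pre-plasmablasts all 111 such values kept direction and call. Over the libraries left out, called integrins numbered 0 to 2 in plasmablasts over pre-plasmablasts (limma, 2 to 3 at an unadjusted p under 0.05 where 0), 1 to 2 in deficient cells over activated B cells and 2 to 5 with GSK343. In plasmablasts over pre-plasmablasts the 2 calls became 1 with the 5 RPKM filter, which left Itga6 untested, and 0 with only those 2 groups fitted (limma, 2 at an unadjusted p under 0.05). That fit of 2 groups called 1 of all 9993 genes tested, in place of 245 of 10473. Without a filter the 4 calls with GSK343 became 0 (limma, 5 at an unadjusted p under 0.05), and the cause was not tested. The block, from paired library numbers, gave 4 calls in deficient cells over activated B cells in place of 2, beside 4477 in place of 1885 among all genes, and for all genes in plasmablasts over pre-plasmablasts 2128 in place of 245. Sign changes, all of genes not called, were Itgb1 in plasmablasts over pre-plasmablasts without the first pre-plasmablast library (-0.054, and 0.13 without the second), Itgal in plasmablasts over activated B cells with median-of-ratios scaling (0.16), and, in deficient cells over activated B cells, Itga6 without the first deficient library (-0.021, and 0.15 without the second) and Itgam without the second (-0.12, and 0.38 without the first). That scaling shifted the median of all genes by 0.10 in pre-plasmablasts and 0.17 in plasmablasts over activated B cells and by -0.11 in deficient over control pre-plasmablasts, and no called integrin changed direction under it. Read depth behind the GC-normalized values is unknown, and 2 libraries per group limit every test.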
